A study of Oryza sativa with 12 samples.

Results

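In rice seedlings, 8936 stretches of chromatin of 800 to 3800 bp carried the histone variant H2A.Z in every H2A.Z library and also held a peak of the core histone H3 in every H3 library. They were found by merging the H2A.Z peaks of 4 libraries and keeping the merged regions of that length that had an H2A.Z peak in all 4 H2A.Z libraries and overlapped an H3 peak by at least 1 bp in each of the 4 H3 libraries. They made up 28.8% of the 31081 regions of 800 to 3800 bp with an H2A.Z peak in all 4 libraries, and 23.4% of the 38145 such regions of any length, out of 53017 merged regions in all. They were thus chosen by the presence of peaks in all 8 libraries and by length, and neither is a result.

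H2A.Z is a variant of histone H2A that remodelling complexes of the SWR1 type exchange into nucleosomes, and in plants it is known from the first nucleosomes of genes and from the bodies of weakly transcribed genes. H3 is part of every nucleosome, so chromatin immunoprecipitation (ChIP) with an H3 antibody serves as a reference for nucleosome content. In yeast, Chz1 is a chaperone that binds H2A.Z together with H2B and hands it to the exchange machinery, and OsChz1 is the rice protein with the same domain.

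The libraries came from whole seedlings of the japonica rice Nipponbare (NIP, unmutated) and of oschz1, grown for 30 days in long days. According to the study's methods oschz1 plants carry a CRISPR/Cas9 frameshift in OsChz1, and pooled seedlings entered each ChIP. The mutant is a single line, and each value is a mixture over all cell types of the seedling. Of the 12 samples, 8 are ChIP libraries, 2 for each genotype and antibody, and 4 are inputs, that is sonicated chromatin sequenced without antibody. The ChIP libraries held 16886473 to 22192417 reads in H2A.Z peaks and 9179714 to 14466571 reads in H3 peaks, and each input served as the control of 1 H2A.Z and 1 H3 library. The peak tables hold no value for the mutated site, so the genotype labels were not checked here.

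The regions had a median length of 1600 bp (interquartile range 1200 to 2400 bp) and covered 16.4 Mb. In 7859 of them (87.9%) every H2A.Z library had called 1 H2A.Z peak, and in 7308 (81.8%) every H3 library had called 1 H3 peak. The share of H2A.Z regions that held H3 in all 4 libraries grew with length, from 20.4% at 800 bp to 39.3% at 3200 bp and 38.1% at 3800 bp. It varied little along the genome, between 26.4% on chromosome 4 and 31.3% on chromosome 7, and between 27.8% within 2 Mb of a chromosome end and 29.2% beyond 10 Mb. Longer regions give more room for an overlap, and the part of that in the rise with length was not tested.

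The limits of the rule cut through a continuous range of lengths. Of the regions of 600 bp, just too short, 415 of 3067 (13.5%) held H3 in all 4 libraries, against 881 of 4318 (20.4%) at 800 bp. Of the regions of 4000 bp, just too long, 165 of 384 (43.0%) did, against 169 of 444 (38.1%) at 3800 bp. Over the H3-holding regions, H2A.Z reads over input were 2.34 and 2.44 in NIP and 2.3 and 2.29 in oschz1 at 600 bp, and 2.47 and 2.54 in NIP and 2.31 and 2.31 in oschz1 at 800 bp. The change from NIP to oschz1 was −3.84% at 600 bp and −7.83% at 800 bp, and the share with H3 also stepped up more here than between neighbouring lengths inside the limits. The smallest H3 overlap that occurred was 200 bp, the caller's window, and in 353 members (3.95%) at least 1 library reached only that. A further 6148 regions of the same lengths missed the rule because only 3 H3 libraries had a peak.

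H3 lay inside the H2A.Z regions and towards their centre. Each region was cut into 3 equal sections, and the bases under H3 peaks were counted in the centre section and in both outer sections together. NIP replicate 1 had 77.7% of the centre bases under H3 peaks and 59.1% of the outer bases. NIP replicate 2 had 76.0% and 56.5%. The oschz1 libraries had 78.2% and 59.6% in replicate 1 and 76.9% and 58.0% in replicate 2. In every library the centre was covered more, by 18.9 ± 0.428 percentage points (SD, n = 4 libraries). The difference was 19.0 points in NIP and 18.8 in oschz1, a genotype difference of −0.26 points (two-sided exact permutation test, p = 0.667), where 0.333 is the smallest p that 2 libraries against 2 can give. Region by region, the centre was covered more in 62.9% to 63.6%, the outer sections more in 17.3% to 18.5%, and both equally in 18.1% to 19.8%.

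H2A.Z peaks showed the same order, less strongly. A merged region reaches as far as the outermost of its H2A.Z calls, and H2A.Z peaks covered the centre more than the outer sections, by 11.1 ± 1.01 points (SD, n = 4). In the 1806 members whose H2A.Z peaks covered exactly the same bases in all 4 libraries that difference is 0 by construction, and H3 covered the centre more, by 13.8 ± 0.76 points (SD, n = 4). The H3 difference shrank with length. It was 24.1 points in regions of 800 to 1400 bp, 18.6 in regions of 1600 to 2400 bp and 9.14 in regions of 2600 to 3800 bp. In the 1487 regions over 3800 bp with H3 in all 4 libraries it was 1.12 points. A peak shorter than its region covers the centre more often than the ends wherever it falls at random, and the share of this geometry in the values was not tested.

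Walking inward from the edge shows where the H3 signal set in. The 200 bp window just outside the edge was under an H3 peak at 8.56% to 9.47% of edges over the 4 H3 libraries, and the next window at 6.99% to 7.82%. From about 1300 bp outwards the share levelled at 12.6% to 14.0%. Just inside the edge it was 37.0% to 40.3%, and 1 window further in 66.4% to 69.1%. H3 coverage was thus lowest in the second window outside and went from a mean of 9.15% just outside to 68.0% in the second window inside. The rule asks for H3 inside the region, and every H3 peak that ends inside leaves its flank uncovered, so the inner rise follows from it in part.

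**Figure D1:**
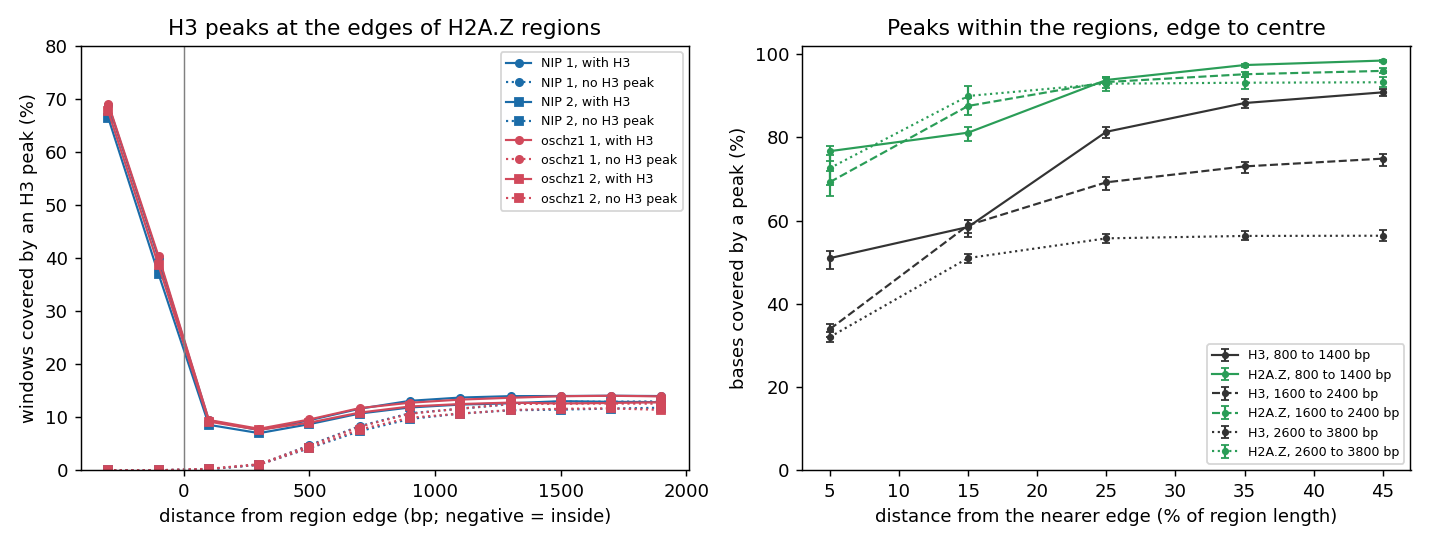
Left: share of 200 bp windows under an H3 peak (%) against the distance from the edge of the H2A.Z region in bp, for each of the 4 H3 libraries (colour, genotype; marker, replicate), at the regions with H3 in all 4 libraries (solid) and at regions of 800 to 3800 bp without H3 peaks (dotted, 0 inside by definition). Right: share of bases under a peak (%) against the distance from the nearer edge in % of region length, for H3 (dark) and H2A.Z (green) in 3 length classes, as the mean of 4 libraries with bars from the lowest to the highest library. H3 coverage climbs from 51.0% to 90.8% towards the centre of the shortest class and from 32.0% to 56.4% in the longest, where it is flat over the inner part.

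Most H3 peaks at these regions were contained in them. Of the H3 peaks, 82.8% to 84.5% lay wholly inside an H2A.Z region, 11.1% to 11.9% crossed 1 edge and 4.38% to 5.72% reached past both. Between 89.8% and 90.6% of their bases were inside. Their median length was 1000 bp in each of the 4 libraries, against 800 bp for all H3 peaks of a library, and their median fold over input was 1.45 to 1.49, against 1.47 to 1.54 for all H3 peaks. H3 peaks at these regions were thus longer than the general H3 peak and not more enriched. The rule asks for H3 in all 4 libraries, and a longer peak meets an overlap more easily. The part of this selection in the greater length was not tested.

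"Stable" describes the presence of H3 peaks here, not their extent. The stretch under an H3 peak in all 4 H3 libraries, here the shared stretch, existed in 8577 members (96.0%) and had a median of 800 bp, or 50% of the region. It formed 1 unbroken run in 8191 (91.7%). Only 1961 members (21.9%) had exactly the same H3 bases in all 4 libraries. In 359 members (4.02%) no base was shared, although each library had called H3 somewhere in the region.

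The shared stretch usually took in the centre. It touched all 3 sections in 4206 members (47.1%), the centre and 1 outer section in 3190 (35.7%), and the centre alone in 200 (2.24%). In 960 members (10.7%) it lay in 1 outer section only, and in 21 (0.235%) in both outer sections but not in the centre. The middle of the shared stretch lay at a median of 20.0% of the way from the region's centre to its edge. For regions of 800 to 1400 bp that offset was 16.7%, and for regions of 2600 to 3800 bp it was 33.3%. H3 on 1 side only was accordingly found in 4.62% of the shortest class, 11.9% of the middle class and 21.0% of the longest.

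**Figure D2:**
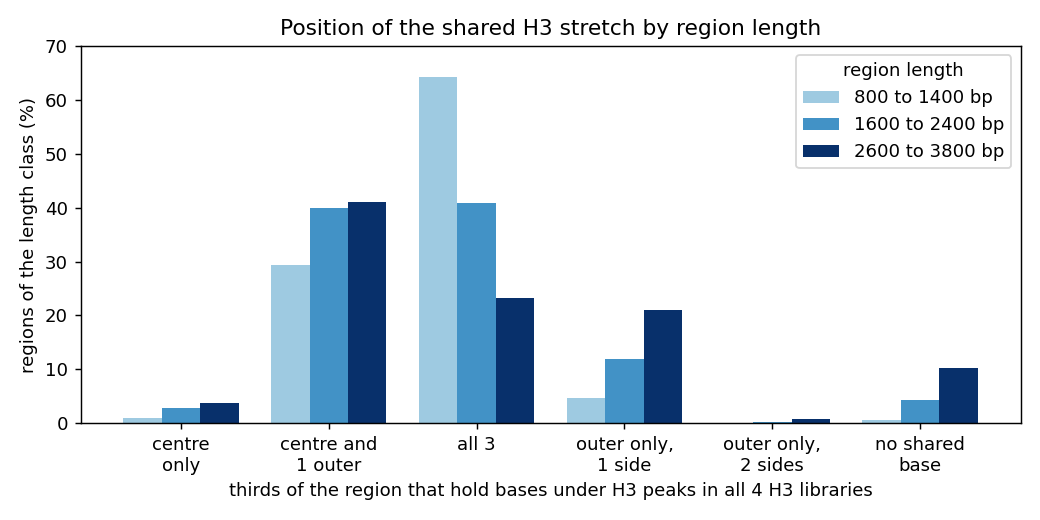
Share of regions (%) in each of 3 length classes by the sections of the region that hold bases under H3 peaks in all 4 H3 libraries. All 3 sections were touched in 64.2% of regions of 800 to 1400 bp and in 23.3% of regions of 2600 to 3800 bp, while H3 on 1 outer side only went from 4.62% to 21.0%.

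The position was not particular to the regions with H3 in all 4 libraries. Where regions of the same lengths had an H3 peak in 1, 2 or 3 libraries, the centre was covered more by 16.1 ± 0.49, 18.4 ± 0.67 and 19.7 ± 0.863 points (SD over the 4 H3 libraries, each library counted over the regions where it had a peak).

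In these regions H2A.Z enrichment was lower in oschz1 than in NIP, while H3 enrichment overlapped between the genotypes. Enrichment is the sum of ChIP reads over the sum of input reads, the latter scaled to the size of the ChIP library, over the bases under the peaks of that library. For H2A.Z it was 2.63 and 2.65 in the NIP libraries and 2.43 and 2.41 in the oschz1 libraries. The 2 genotypes did not overlap, and the gap between them was far wider than that between replicates. The mean was 2.64 ± 0.0138 for NIP and 2.42 ± 0.0139 for oschz1 (SD, n = 2). That is a change of −8.27% (two-sided exact permutation test, p = 0.333, the smallest possible). For H3, enrichment over the overlapping peaks was 1.44 and 1.46 in NIP and 1.45 and 1.48 in oschz1. The genotypes overlapped, with a change of 0.964% and an exact permutation p of 0.667.

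Dividing the H2A.Z by the H3 enrichment of the same genotype and replicate number gave 1.83 and 1.81 in NIP and 1.67 and 1.63 in oschz1. Again both oschz1 values were below both NIP values, by 9.14% in the mean (exact permutation p = 0.333). The H2A.Z and the H3 library of each quotient shared an input.

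The fall was present in every chromosome and every length class. On each of the 12 chromosomes both oschz1 libraries were below both NIP libraries, and the change ran from −7.34% on chromosome 7 to −8.96% on chromosome 9. It was −8.38% in regions of 800 to 1400 bp, −8.74% in regions of 1600 to 2400 bp and −7.68% in regions of 2600 to 3800 bp. Within replicate numbers the difference in H2A.Z enrichment was −0.20 for replicate 1 and −0.24 for replicate 2. For H3 it was 0.0145 for replicate 1 and 0.0135 for replicate 2. H3 was thus slightly higher in oschz1 within both numbers, although the genotypes overlapped as given above.

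H2A.Z levels differed between the classes of H3 position. Where the shared H3 stretch touched all 3 sections, H2A.Z enrichment was 2.75 and 2.78 in NIP and 2.54 and 2.51 in oschz1, a change of −8.77%. Where it lay in 1 outer section only, enrichment was 2.38 and 2.36 in NIP and 2.22 and 2.21 in oschz1, a change of −6.62%. These regions were lower in each of the 4 libraries. In the other classes the NIP means were 2.67 for the 21 regions with H3 in both outer sections only, 2.62 for the centre and 1 outer section, 2.51 for the centre only and 2.35 where no H3 base was shared. Between all sections and 1 outer section H3 enrichment had the opposite order, at 1.44 and 1.45 in NIP for all sections and 1.45 and 1.51 for 1 outer section. The classes differ in length too, with medians of 1400 bp for all sections and 2400 bp for 1 outer section, and the part of length in this was not tested.

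Among single regions the fall was found in most members and not only in a few. Its size varied, with 5th and 95th percentiles of −0.55 and 0.30 in log2, and whether all regions moved alike was not tested. In log2, the median change in H2A.Z enrichment was −0.12 over the members, with 69.7% of them negative, against −0.09 and 63.2% over all 38145 regions. In 2933 members (32.8%) both oschz1 libraries had less H2A.Z enrichment than either NIP library, where 26.6% of all tested regions did. The reverse held in 751 members (8.40%), where 11% of all regions were higher in both oschz1 libraries. For H3 the counts were close to the background in both directions. H3 enrichment was lower in both oschz1 libraries in 1485 members (16.6%, against 16.8% of all 10920 regions with peaks in all 8 libraries) and higher in 1725 (19.3%, against 19.2%), and members make up most of that background.

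The regions differed widely among themselves. In NIP replicate 1 the 5th percentile of H2A.Z enrichment was 1.57, the median 2.64 and the 95th percentile 3.80, and in oschz1 replicate 1 these were 1.47, 2.44 and 3.52. For H3 the spread was narrower, at 1.16, 1.45 and 2.10 in NIP replicate 1. As a description over 8936 regions, the H2A.Z enrichment of any pair of H2A.Z libraries had Pearson r of 0.59 to 0.62, and that of any pair of H3 libraries 0.18 to 0.29, so the H3 level of a single region was poorly reproduced. The median H3 count per member was 205 to 303 reads, against 480 to 624 for H2A.Z.

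The correlation of H2A.Z and H3 enrichment over regions was higher in pairs of libraries that share an input. In the 4 pairs of H2A.Z and H3 libraries with a common input r was 0.31 to 0.34 (rho 0.29 to 0.35). In the 12 pairs with different inputs it was 0.02 to 0.05 (rho 0.02 to 0.07). The values of a pair with a common input are divided by the same input counts, and the part of this in the higher r was not tested.

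Across regions of the same lengths, H2A.Z was higher the more H3 libraries had a peak there. In regions without any H3 peak (n = 6969), H2A.Z enrichment was 1.86 and 1.87 in NIP and 1.82 and 1.81 in oschz1. With an H3 peak in 1, 2 and 3 libraries (n = 4244, 4784 and 6148) the NIP means were 2.02, 2.18 and 2.38, and with all 4 the mean was 2.64. The excess of the members over the regions without H3 was 0.771 and 0.782 in the NIP libraries and 0.616 and 0.602 in the oschz1 libraries. It was positive in 4 of 4 libraries (mean 0.693 ± 0.0971 SD), and the two-sided exact sign-flip permutation test gave p = 0.125, the smallest that 4 libraries allow. Both ChIP and input reads were denser in the members. Per kb of peak, NIP replicate 1 had 19.3 RPM of H2A.Z (RPM, ChIP reads scaled to 1000000 reads in the peaks of the library) and 64.9 input reads in the members, and 10.4 RPM and 49.4 input reads in the regions without H3. The inputs that divide the H2A.Z reads here were also the controls of the H3 libraries whose peaks sort the regions. The parts of input density and of these common inputs in this order were not tested.

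The genotype difference went the same way. From 0 to 4 H3 libraries the change in H2A.Z enrichment was −2.72%, −5.14%, −6.48%, −7.51% and −8.27%. The log2 of the members' enrichment over that of the regions without H3 was 0.50 in both NIP libraries and 0.42 and 0.41 in the oschz1 libraries. The oschz1 minus NIP difference was −0.08, with both oschz1 libraries below both NIP libraries and p = 0.333 in the exact permutation test, the smallest possible.

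**Figure D3:**
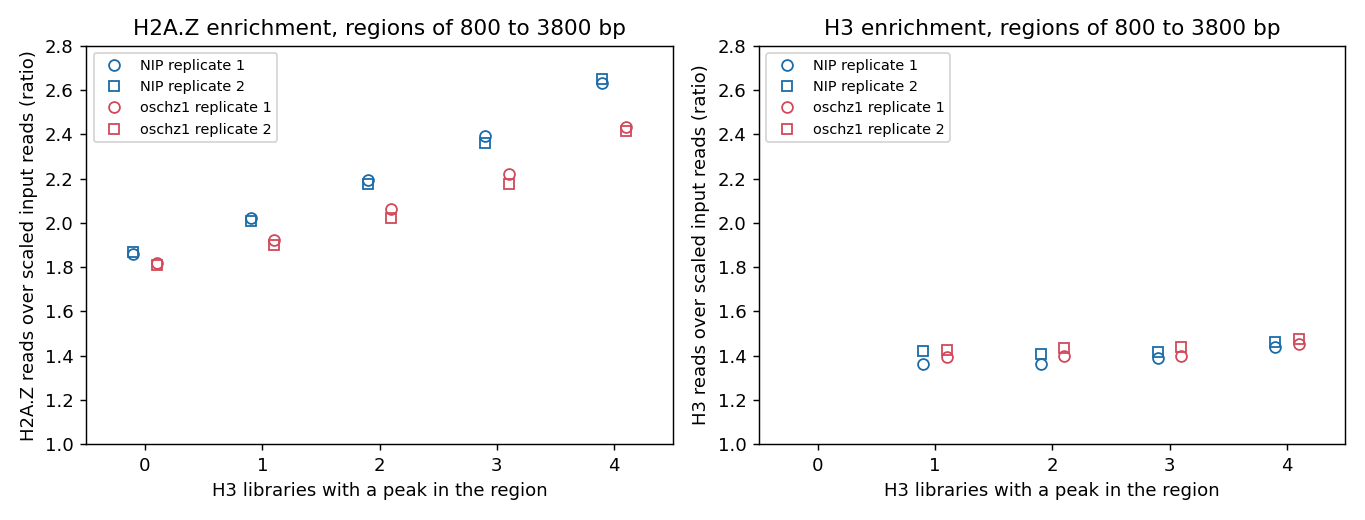
H2A.Z enrichment (left) and H3 enrichment (right), as ChIP reads over scaled input reads, summed over the regions of 800 to 3800 bp with an H3 peak in 0 to 4 of the H3 libraries; each point is a library. H2A.Z goes from 1.87 to 2.64 in the NIP means with the number of H3 libraries and both oschz1 libraries stay below NIP, while the H3 points of the genotypes interleave between 1.36 and 1.48.

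The fall was also set out by level. Regions were sorted by their mean H2A.Z enrichment over all 4 libraries, both genotypes included. Between 1.5 and 2 the change was −6.25% in 1297 members and −2.22% in 3849 regions without H3. Between 2 and 2.5 it was −7.77% in 2383 members and −3.38% in 2087 regions without H3, and between 2.5 and 3 it was −8.29% in 3221 and −4.49% in 373. In each of the 5 bins that hold both classes the members had the larger percent fall. In both classes the mean fall was larger at higher enrichment up to a level of 4. For regions without H3 the genotypes overlapped between 3 and 4 (95 regions), at 2.68 and 3.31 in NIP and 2.70 and 3.01 in oschz1. They also overlapped under 1.5 (554 regions), at 1.411 and 1.398 in NIP and 1.403 and 1.390 in oschz1. The classes are not alike within a bin. The NIP means were 1.81 for the members and 1.75 for the regions without H3 between 1.5 and 2, 2.35 and 2.14 between 2 and 2.5, 2.82 and 2.55 between 2.5 and 3, and 3.37 and 2.99 between 3 and 4. These are sums over regions, given as a description with no test, and input density differed between the classes as stated above.

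**Figure D4:**
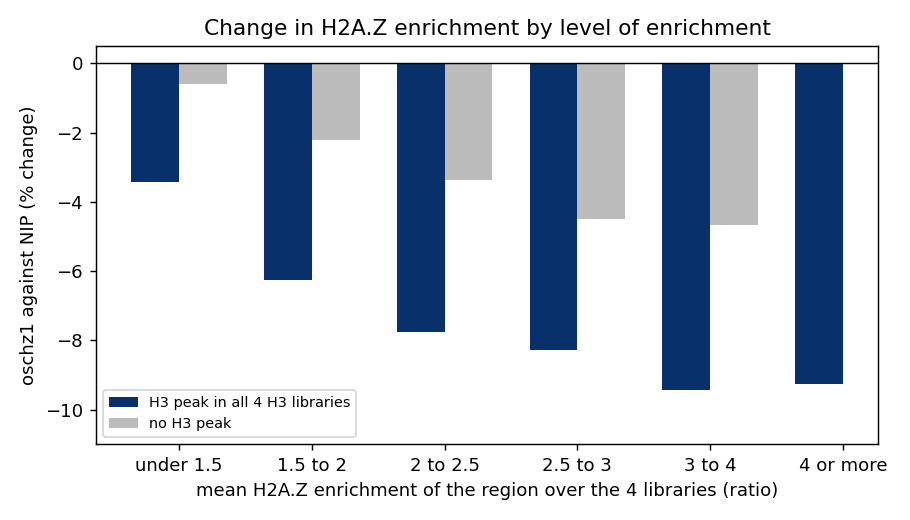
Change in H2A.Z enrichment from NIP to oschz1 (% of the NIP mean) in bins of the region's mean enrichment, for regions with H3 in all 4 libraries (dark) and without H3 peaks (grey; no bar above 4, where too few lie). The dark bars reach −3.43% to −9.45% and the grey bars −0.59% to −4.66%. In the lowest and the highest grey bin the libraries of the genotypes overlapped.

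Reads per region were then tested with the quasi-likelihood test of edgeR over all 38145 regions, with reads in all peaks as library size and Benjamini-Hochberg adjusted p-values. Of the members, 13 had fewer H2A.Z reads in oschz1 (0.145%, where 0.076% of all regions were called lower) and 58 had more (0.649%, where 0.731% of all regions were called higher). At an unadjusted p under 0.05, 1049 members were lower (11.7%, against 6.49% of all regions) and 245 were higher (2.74%, against 5.87%). Over the members the log2 change had a median of −0.07 and over all regions of −0.02. The difference of these medians was −0.05 under each of the 4 scalings tried. A scaling moves all regions nearly alike, so this difference could not have changed with it and the scalings do not test it. Adjusted calls thus leaned towards rises, while the body of the members leaned towards falls.

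The calls went with the length of the peaks. In 54 of the 58 members called higher, each oschz1 library had a longer covered length than either NIP library, and in 11 of the 13 called lower each had a shorter one. The median log2 change in enrichment over input was only 0.03 in the 58, and −0.19 in the 13. Over all members, the covered length was longer in both oschz1 libraries in 842 (9.42%, against 11.3% of all regions) and shorter in 462 (5.17%, against 5.06%). The tables count reads only under peaks called in the same library, and the part of peak length in the calls was not tested. Among regions with the same H2A.Z bases in all 4 libraries, the test called 157 of 1806 members lower (8.69%, where 4% of all 7107 such regions were) and 6 higher (0.332%, where 0.352% were). Among regions of which at least 80% was covered in every library, it called 187 of 5262 members lower (3.55%, where 2.01% of all 18683 were) and 20 higher (0.38%, where 0.642% were). Both restrictions select regions on extent. limma on log2 enrichment called none in either direction, where an unadjusted p under 0.05 was reached by 462 falling members (5.17%, against 4.72% of all regions) and 60 rising ones (0.671%, against 1.65%).

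Among the members called higher, the 5 largest rises lay on chromosomes 2, 6, 8 and 9 of the MSU rice genome (positions count from 1; genes were not assigned, since no annotation of that build was used here). The largest was chr2:30371801-30373800. Its H2A.Z RPM were 8.88 and 9.36 in NIP and 33.1 and 34.3 in oschz1 (log2 change 1.89 with an SE of 0.11; adjusted p = 0.000468 in edgeR). The genotypes were far apart, but H2A.Z peaks covered 800 and 1000 bp of it in NIP and 1800 and 2000 bp in oschz1. Over input the H2A.Z enrichment was 1.78 and 1.53 in NIP and 2.68 and 2.47 in oschz1, so this region was also denser.

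The second, chr2:22565601-22568000, was longer without being denser. Its H2A.Z RPM went from 7.62 and 7.58 to 27.7 and 27.8, with covered lengths of 600 and 600 bp in NIP and 2000 and 2400 bp in oschz1. Its enrichment was 2.59 and 3.55 in NIP and 2.08 and 2.46 in oschz1, the opposite direction.

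The remaining 3 were chr6:7908001-7910200, chr9:7842801-7844400 and chr8:2904201-2907800, with log2 changes of 1.76, 1.72 and 1.69. In all 3 the oschz1 peaks were longer, for example 800 and 800 bp against 1600 and 1600 bp at the chromosome 9 region. There H2A.Z enrichment was 1.25 and 1.57 in NIP and 2.90 and 2.90 in oschz1, the clearest rise of the 5.

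The 5 largest falls were chr8:13919201-13920400, chr2:16150001-16152800, chr5:10728801-10730400, chr2:4126801-4130200 and chr6:3321001-3322800, with log2 changes of −1.75, −1.48, −1.42, −1.33 and −1.02. At the chromosome 8 region, H2A.Z RPM were 11.4 and 8.53 in NIP and 3.04 and 2.91 in oschz1 (log2 change −1.75 with an SE of 0.23; adjusted p = 0.0189 in edgeR). H2A.Z peaks covered 1200 and 800 bp in NIP and 200 and 200 bp in oschz1. What remained called in oschz1 was a single window with high enrichment, 2.58 and 4.53 against 1.40 and 1.81 in NIP. No base of this region was under H3 peaks in all 4 H3 libraries.

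The fall at chr5:10728801-10730400 was from 26.7 and 25.3 to 9.52 and 9.96 H2A.Z RPM (log2 change −1.42 with an SE of 0.12; adjusted p = 0.00251 in edgeR), with 1600 and 1600 bp covered in NIP and 800 and 1000 bp in oschz1. At chr2:16150001-16152800 the reads of both histones were lower and their peaks shorter in oschz1. H2A.Z RPM were 22.7 and 29.3 in NIP and 7.57 and 11 in oschz1, and H3 RPM were 27.2 and 35.3 in NIP and 7.88 and 11.9 in oschz1. H2A.Z peaks covered 2000 and 2600 bp in NIP and 800 and 800 bp in oschz1, and H3 peaks 1600 and 1800 bp in NIP and 400 and 800 bp in oschz1. Over input the genotypes overlapped, with an H2A.Z enrichment of 2.01 and 2.23 in NIP and 2.01 and 2.52 in oschz1, and an H3 enrichment of 1.61 and 1.93 in NIP and 2.17 and 1.22 in oschz1.

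**Figure D5:**
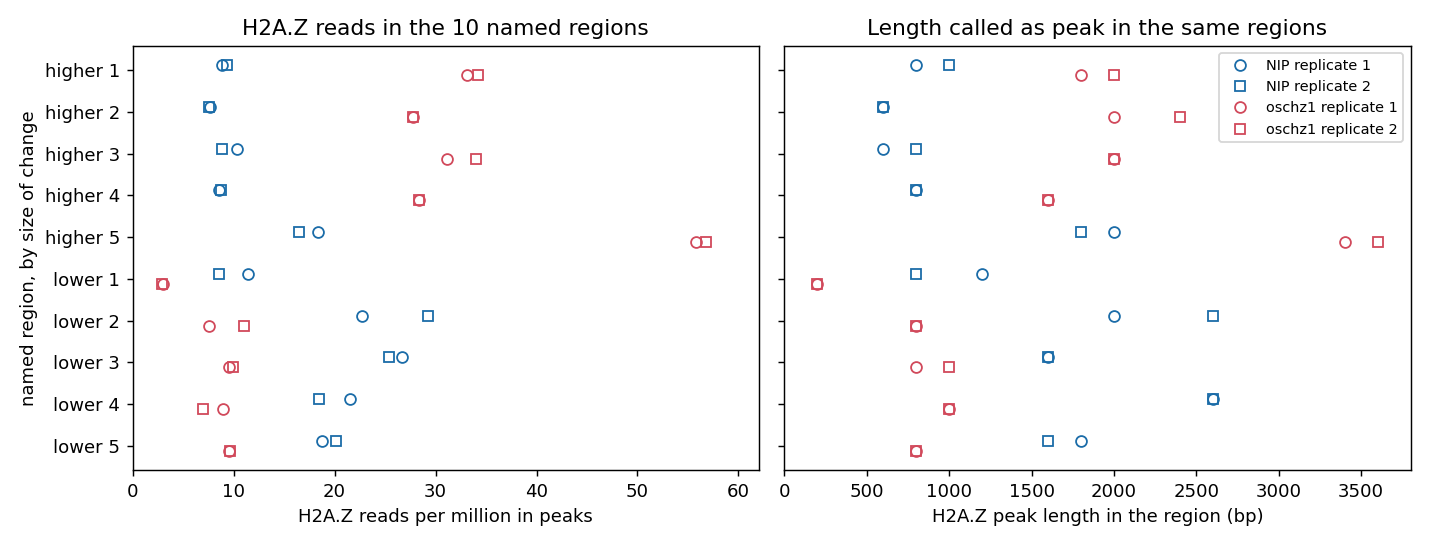
H2A.Z RPM (left) and length called as H2A.Z peak in bp (right) in each of the 4 H2A.Z libraries, for the 5 members with the largest called rises and the 5 with the largest called falls, in order of size. The regions were picked with both oschz1 libraries beyond both NIP libraries in RPM, so the left panel separates by selection. Reads are counted only under peaks, and in all 10 regions the peak length separates in the same direction. In the top region reads go from 8.88 and 9.36 to 33.1 and 34.3 and length from 800 and 1000 bp to 1800 and 2000 bp.

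No change in H3 reads was called by the main test. Over the 25169 H3 regions with a peak in all 4 H3 libraries, of which 8806 overlapped a member, edgeR called none at an adjusted p of 0.05. At an unadjusted p under 0.05, 140 of the 8806 were lower (1.59%, where 2.05% of all H3 regions were) and 596 higher (6.77%, where 6.1% of all were). DESeq2 called 18 falls (0.204%, against 0.302% of all H3 regions) and 33 rises (0.375%, against 0.389%). Among H3 regions of which at least 80% was covered in every library, edgeR called 2 falls (0.0545% of 3668 at members, against 0.0226% of all 8854) and 45 rises (1.23%, against 0.768%). Over the 8806, the median of the log2 changes was 0.06, as over all H3 regions, and with TMM factors or DESeq2 size factors both medians were −0.01 to 0.00. As given above, H3 libraries followed each other less from region to region than H2A.Z libraries did, which limits this test.

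Whether H2A.Z moved against H3 was asked through the interaction of antibody and genotype in edgeR, over 10852 H2A.Z regions with peaks in all 8 libraries, 8883 of them members. H2A.Z fell relative to H3 in 55 members (0.619%, where 0.608% of all tested regions did) and rose in 25 (0.281%, where 0.387% did). At an unadjusted p under 0.05, 1147 members were lower (12.9%, against 11.8%) and 246 higher (2.77%, against 3.29%). Members make up most of the tested regions, so the shares are alike. With the H2A.Z and H3 libraries that share an input joined as a block, edgeR made 0 calls. An unadjusted p under 0.05 was reached there by 850 members that were lower (9.57%, against 8.85% of all tested regions) and 212 that were higher (2.39%, against 2.93%). Leaving out any single replicate also left 0 calls, in fits where the lone library of a group is assumed to vary like the others. There 667 to 1024 members (7.51% to 11.5%, against 7.17% to 10.7% of all tested regions) were lower and 210 to 327 (2.36% to 3.68%, against 2.98% to 4.74%) higher at an unadjusted p under 0.05. The split of the calls depended on scaling, with 45 lower (0.507%, against 0.488% of all tested regions) and 45 higher (0.507%, against 0.673%) under TMM factors. The median log2 interaction was −0.13 over the members and −0.12 over all tested regions as fitted, −0.12 and −0.11 with the recovered library size, and 0.00 and 0.01 with TMM factors, which centre each library by construction. A common shift cannot be judged from the last, and reads in peaks as library size can take up part of one too. For H2A.Z reads alone the median log2 change over the members was −0.07 as fitted and −0.12 with the recovered library size.

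In 5 of the 6 interactions named here the length of the H3 peaks counted differed between the genotypes, and in the rises H2A.Z reads changed as well. At chr12:1796401-1798200 H2A.Z RPM were 16.9 and 17.9 in NIP and 13.7 and 8.78 in oschz1, and H3 RPM were 6.66 and 7.31 in NIP and 72.7 and 76.8 in oschz1 (log2 interaction −4.05 with an SE of 0.30; adjusted p = 0.0131 in edgeR). H3 peaks covered 1200 and 1200 bp of the region in NIP and all 1800 bp in oschz1. The H3 peaks counted for it were 400 bp long in both NIP libraries and 4800 bp in both oschz1 libraries, where a peak that touches more than 1 region was given to the region with the most overlap. The H3 enrichment of the overlapping peaks was 1.27 and 1.40 in NIP and 1.29 and 1.27 in oschz1.

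The other 2 falls relative to H3 were chr3:10988801-10992400 and chr2:1799201-1801800 (log2 interactions −2.29 and −2.25). Their H3 peaks covered 600 and 200 bp in both NIP libraries, and 2600 to 3000 bp and 1000 bp in oschz1. The 3 largest rises were chr10:11545001-11547000, chr4:18826401-18829200 and chr6:18916401-18917800 (2.38, 2.3 and 1.99). At the chromosome 10 region H2A.Z RPM were 13.2 and 10.9 in NIP and 29.7 and 29.5 in oschz1. H3 RPM there were 31.2 and 31.0 in NIP and 12.8 and 16.6 in oschz1. At the chromosome 4 region H2A.Z RPM were 13.9 and 16.5 in NIP and 44.6 and 48.0 in oschz1. H3 RPM there were 59.7 and 56.9 in NIP and 35.6 and 36.8 in oschz1. At the chromosome 6 region the H3 peaks were 1000 bp long in all 4 H3 libraries, and the reads of both histones changed. H3 RPM were 22.9 and 22.7 in NIP and 17.8 and 15.3 in oschz1, with an H3 enrichment of 2.13 and 2.29 in NIP and 2.06 and 1.69 in oschz1. H2A.Z RPM were 8.02 and 8.53 in NIP and 25.4 and 22.3 in oschz1 there, over 400 and 400 bp in NIP and 1400 and 1000 bp in oschz1, and enrichment was 2.83 and 3.74 in NIP and 4.15 and 4.45 in oschz1.

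Where peak length does not vary, reads show density alone. Of the 1806 members with the same H2A.Z bases, 491 also had the same H3 bases in all 4 H3 libraries. In 486 of these the H3 stretch touched the centre and an outer section, in 5 it lay in outer sections only, and in 0 in the centre only. The highest mean H2A.Z enrichment among the 486 was at chr5:10439401-10440600, where H2A.Z and H3 peaks both covered all 1200 bp in every library. Its H2A.Z enrichment was 4.19 and 6.44 in NIP and 4.99 and 3.79 in oschz1, and its H2A.Z RPM were 39.8 and 40.4 in NIP and 36.5 and 37.5 in oschz1. The reads were lower in both oschz1 libraries by a log2 change of −0.12 ± 0.07 (SE), which did not pass the test (edgeR adjusted p = 0.547), and the enrichments overlapped.

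At chr11:8127201-8128200, the next of them, H2A.Z RPM were 37.2 and 39.4 in NIP and 29.9 and 34.6 in oschz1, and enrichment was 5.97 and 4.93 in NIP and 3.68 and 3.54 in oschz1. The third, chr11:11609601-11611000, had 49.9 and 55.9 in NIP and 47.1 and 46.4 RPM in oschz1, with an enrichment of 3.90 and 4.61 in NIP and 3.67 and 5.65 in oschz1, which overlap. In both regions, the oschz1 libraries were below the NIP libraries in reads, with adjusted p-values of 0.351 and 0.39 in edgeR.

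Of the 5 regions with H3 in an outer section only, the highest H2A.Z was at chr11:18922001-18925600. H2A.Z covered all 3600 bp of it and H3 the same 1200 bp on 1 side in every library. H2A.Z enrichment there was 2.76 and 2.95 in NIP and 2.57 and 2.73 in oschz1, and H3 enrichment was 1.54 and 1.33 in NIP and 2.29 and 1.75 in oschz1. The genotypes did not overlap for either, with H2A.Z lower and H3 higher in oschz1. Its H2A.Z reads did not pass the test, with a log2 change of −0.08 ± 0.06 (SE) and an edgeR adjusted p of 0.637. The other 2 named, chr7:24938201-24939600 and chr2:28454001-28456000, had log2 changes in H2A.Z reads of −0.13 and −0.15, neither past the test.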

How the data were processed

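The samples were grouped by genotype, antibody and replicate number from their titles. According to the study's methods the authors mapped reads with Bowtie2 to the MSU rice genome, removed reads of low mapping quality and duplicates with SAMtools, and called H2A.Z peaks against input with SICER in 200 bp windows; for H3 the caller is not given in the sources used here, but the tables have the same layout. Each deposited table is of 1 library and gives unnormalised counts of ChIP and of input reads per peak, as the authors' caller made them. It also gives the deposited p-value and q-value, and the fold, a ratio of ChIP to input scaled by library size, of which the q-value and the fold were used. The deposited peaks have q-values of at most 0.05. The scaling constant was worked out from the fold values of each table, and from it and the input counts the relative size of each library.

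The members and lists were chosen with earlier results of these data known. Peaks of 1 antibody were merged and counts summed per region and library. H3 reads were taken over whole peaks that overlap a region. Tests were edgeR 4.0.16 in R 4.3.3, with DESeq2 1.42.0 and limma 3.58.1 (pseudocount 0.5) as alternatives, and two-sided exact permutation tests of library values. The edgeR fits were tested on simulated data. Regions named are the 5 largest called rises and falls in H2A.Z reads and the 3 of each for the interaction, with both oschz1 libraries beyond both NIP libraries, and the 3 of highest mean enrichment in each H3 position class among members of constant extent. Alternatives were a false discovery rate of 1e-10, an H3 overlap of 400 bp, joining of peaks less than 600 bp apart, other scalings, at least 50 reads, at least 80% covered, the replicate number as a block and leaving out replicates. Chosen after seeing the data were the read-count tests on regions of the same extent, the bins of enrichment and a block of libraries that share an input. Replicates are separate by their labels, and whether they came from separate harvests is not stated in the labels, so p-values measure the spread between these samples. Genes and sequences were not analysed here.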

Additional observations from a re-analysis of the deposited data

Results flagged for a closer look

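The interaction of antibody and genotype in edgeR called 80 members. H2A.Z was lower relative to H3 in 55 (0.619%, against 0.608% of all tested regions) and higher in 25 (0.281%, against 0.387%). With the libraries that share an input joined as a block it called 0, and the adjusted p of each of the 6 regions named was 0.17. The log2 interactions of the regions named were 2.38 at chr10:11545001-11547000, 2.3 at chr4:18826401-18829200, 1.99 at chr6:18916401-18917800, −4.05 at chr12:1796401-1798200, −2.29 at chr3:10988801-10992400 and −2.25 at chr2:1799201-1801800. In 5 of these 6 the length of the H3 peaks counted differed between the genotypes. The regions were picked with both oschz1 quotients of H2A.Z to H3 reads beyond both NIP quotients, so leaving out a replicate could not turn their direction. On leaving one out the log2 interaction was 2.19 to 2.58 at the chromosome 10 region and −4.45 to −3.73 at the chromosome 12 region. None of the 6 was then called, in fits where a lone library is assumed to vary like the other groups. With 2 libraries a group, single libraries far from the rest of their group could not be looked for.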

How the results depend on the processing

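Counts rest on few calls, on 2 libraries a group and on peak extent. A false discovery rate of 1e-10 left 578 members, and leaving out a replicate gave 10277 to 10897, since fewer libraries must then hold a peak. The excess of H3 cover in the centre was 20.7 points at 1e-10, 19.5 with 400 bp of overlap, 15.7 with peaks under 600 bp apart joined and 13.8 at constant H2A.Z extent, with 18.7 to 19.0 on leaving out a replicate. Without a replicate the H2A.Z enrichment difference was −0.23 to −0.21, that of H3 0.00212 to 0.0259, that of their ratio −0.19 to −0.15, the excess over regions without H3 0.663 to 0.723, and its genotype effect −0.09 to −0.08.

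Members called lower and higher for H2A.Z reads were 38 and 106 with DESeq2, 187 and 20 at 80% cover, 0 and 0 with limma, 157 and 6 at constant extent (471 and 6 with recovered library size), and 7 to 15 and 37 to 57 without a replicate. For H3 they were 18 and 33 with DESeq2, 2 and 45 at 80% cover, and 0 without a replicate. With DESeq2 the H2A.Z falls were 0.425% of members (against 0.32% of all regions) and the rises 1.19% (against 1.88%). At constant extent with recovered library size they were 26.1% (against 12.2% of all 7107 such regions) and 0.332% (against 0.295%). Shares at 80% cover, at constant extent as fitted and for H3 are given above. Fits without a replicate leave a lone library in a group, so no shares are given for them. For the interaction, members called lower and higher were 240 (2.7%, against 2.59% of all tested regions) and 217 (2.44%, against 2.99%) with DESeq2. With TMM factors they were 45 (0.507%, against 0.488%) and 45 (0.507%, against 0.673%). At 80% cover they were 19 (1.26%, against 1.25%) and 0, and with libraries sharing an input as a block 0 and 0. With the replicate block they were 24 (0.27%, against 0.249%) and 9 (0.101%, against 0.175%) for the interaction. For H2A.Z they were then 9 (0.101%, against 0.0393% of all regions) and 47 (0.526%, against 0.566%), and for H3 0. Deviations of same-numbered libraries correlated over regions by −0.01 for H2A.Z and 0.00 for H3. Such a correlation cannot see a difference common to all regions of a library. H3 enrichment in the members was higher in replicate 2 of both genotypes, at 1.44 and 1.46 in NIP and 1.45 and 1.48 in oschz1. Whether the numbers pair the genotypes cannot be told from this. The median H3 change turned to −0.0082 with TMM and −0.0063 with DESeq2, and the median interaction to 0.0015 and 0.014. limma on enrichment turned chr2:22565601-22568000 to −0.41, chr8:13919201-13920400 to 1.07, chr2:16150001-16152800 to 0.085 and chr2:4126801-4130200 to 0.24. The causes were not tested.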
